A study of Mus musculus with 10 samples.

Results

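The chaperonins are the barrel-shaped protein-folding machines of the cell, and mouse cells carry a cytosolic and a mitochondrial kind. The 10 genes described here are the 8 that encode the subunits of the cytosolic chaperonin CCT, also called TRiC (Tcp1, Cct2, Cct3, Cct4, Cct5, Cct6a, Cct7 and Cct8), and the 2 that encode the mitochondrial chaperonin HSP60 (Hspd1) and its lid HSP10 (Hspe1). They were taken by symbol from the 24391 genes of the count files, all 10 were found, and all 10 were among the 12835 genes that passed the filter on low counts and were tested. RNA-seq measured them in 5 lines grown from mouse small cell lung cancer (SCLC), a neuroendocrine tumour: G4314, G9351, G9488, G9529 and G9577, each with MYCN on and with MYCN off.

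Both groups carry the same genotype, written in the labels as Rb;p53, TRE-MYCN, LSL-RTTA: altered Rb and p53 tumour suppressor genes, MYCN driven by a TRE promoter, and the rtTA activator, which needs doxycycline and sits behind a stop cassette that Cre removes. The MYCN-on group is 5 libraries from cells kept in doxycycline, and the MYCN-off group is 5 libraries from the same lines after 4 days without it. The Cre used, the clonal state of the lines and the species of the transgene are not given in the sources used here. Each line gave 1 library per condition, so the p-values measure the spread of the difference between lines. The question put by the design is which genes MYCN regulates in these cells. No library came from cells with doxycycline and no transgene, and doxycycline is itself known to inhibit mitochondrial translation, so for every gene, those of the mitochondrial chaperonin included, effects of MYCN and of the drug cannot be told apart.

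In CCT, 8 related but different subunits form each ring, and stacked rings close over newly made proteins with the use of ATP. Its best-known substrates are actin and tubulin, and proteins of the WD40 repeat family are others. HSP60 and HSP10 do the same work in the mitochondrial matrix, on proteins that have been imported there, and the mitochondrial HSP70 system hands over some of them. Several of the 10 genes belong to standard collections of MYC target genes.

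The libraries held 9586465 to 11960074 counts with MYCN on and 9928420 to 11123998 with MYCN off. Levels are given as CPM, the counts of a gene relative to all counts of its library, scaled with TMM factors, and a gene is called when its adjusted p is below 0.05 in edgeR's quasi-likelihood test blocked by line, with Benjamini-Hochberg adjustment across the 12835 genes. A positive log2 change means a higher level with MYCN on. Mycn itself had 538, 496, 884, 791 and 977 CPM with MYCN on in G4314, G9351, G9488, G9529 and G9577, against 177, 27.6, 189, 109.8 and 85.9 CPM with MYCN off, so every on library lay above every off library. No spike-in is named, so levels are shares of a library, and fewer cells of a type and less RNA per cell cannot be told apart.

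G9577 stood apart from the other lines. In G9577, 10 neuroendocrine markers summed to 224 CPM with MYCN on and 174 with MYCN off. In the other 4 lines they summed to 3322 to 4126 with MYCN on and 5163 to 6587 CPM with MYCN off. Of these markers, 5 were below 1 CPM in G9577 with MYCN on and 2 with MYCN off, and 1 was at 0 counts in both libraries. The summed level of 10 fibroblast or mesenchymal markers in G9577 was 3412 CPM with MYCN on and 16920 with MYCN off, and at most 21.5 CPM in any library of the other 4 lines. The labelled neuroendocrine tumour type is thus seen in 4 of the 5 lines, and the member changes are given below with and without G9577.

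The summed level of 6 endothelial markers was 150.0, 8.59, 46.3, 41.4 and 36.3 CPM with MYCN on in G4314, G9351, G9488, G9529 and G9577, against 462, 50.2, 274, 87.3 and 140.2 CPM with MYCN off. It was lower with MYCN on in all 5 lines, and between 1 and 3 of the 6 markers were at 0 counts in each library. In the 4 lines other than G9577 most of the sum was Vwf, for example 451 CPM in G4314 and 272 CPM in G9488 with MYCN off. In G9577 most of it was Kdr, at 35.4 CPM with MYCN on and 130.4 with MYCN off. Cdh5 and Emcn were below 1 CPM in every library. In G9577, 7 alveolar and airway markers summed to 5.96 CPM with MYCN on, against 405 CPM with MYCN off, and 8 immune markers to 5.87 CPM with MYCN on, against 69.02 CPM with MYCN off. Of these markers, 2 of the 7 and 3 of the 8 were at 0 counts in G9577 with MYCN on, against 2 of the 7 and 4 of the 8 with MYCN off. No library of the other 4 lines was above 21.1 CPM for the alveolar and airway list or above 6.08 CPM for the immune list. The part of these cell types in the chaperonin levels was not tested.

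The DNA around the start sites is shown first for the gene pair that changed most. In the RefSeq annotation of GRCm38.p6, Hspd1 on the minus strand and Hspe1 on the plus strand of chromosome 1 start 215 bases apart, at positions 55087932 and 55088148, and are read away from each other. A stretch from the middle of the interval is chr1:55088025-55088131, plus strand, with the TTC and GAA units of the 3 overlapping inverted heat shock pairs in capitals (TTCNNGAA or GAANNTTC, searched on both strands), the unit that heat shock factor recognises.
Hspd1 to Hspe1 interval: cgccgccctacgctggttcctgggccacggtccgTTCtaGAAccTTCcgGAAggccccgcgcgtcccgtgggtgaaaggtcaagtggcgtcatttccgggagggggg
RefSeq lists a second Hspd1 start at 55088243. The E-box CACGTG, the hexamer that MYC proteins bind with their partner MAX, was found in the window of this start alone among the members, at positions 55088318 to 55088323, upstream of that start and downstream of the Hspe1 start, inside a 5′ exon of Hspe1 in the GENCODE annotation. It is shown in capitals in chr1:55088306-55088335, minus strand.
Hspd1 second start, E-box: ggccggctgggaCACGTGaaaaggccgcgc

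Among the CCT genes, the stretches before the starts of Cct3 and Cct7 are shown because these genes had the largest and the smallest fitted change of the 8. They are chr3:88297000-88297115 and chr6:85451284-85451504, both plus strand, with CCAAT boxes in capitals. All of the boxes lie on the other strand and so read ATTGG.
Cct3 upstream: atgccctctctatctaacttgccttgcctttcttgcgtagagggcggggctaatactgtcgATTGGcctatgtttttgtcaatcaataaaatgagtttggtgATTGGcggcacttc
Cct7 upstream: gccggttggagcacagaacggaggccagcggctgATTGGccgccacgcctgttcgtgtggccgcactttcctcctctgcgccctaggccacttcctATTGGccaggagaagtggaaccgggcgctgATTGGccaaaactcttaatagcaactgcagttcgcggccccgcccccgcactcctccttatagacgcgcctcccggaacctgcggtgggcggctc
The 2 boxes of Cct3 begin 74 and 33 bases before its start, and the 3 of Cct7 begin 187, 125 and 95 bases before its start. RefSeq start windows, from 250 bases before to 50 bases after a start, were matched for 9 of the 10 members, and Cct4 had none. CACGTG lay in the windows of 1 of the 9 members and in 7.15% of all 32851 windows, CCAAT in those of 5 members and in 37.4% of windows, and the inverted heat shock pair in those of 5 members and in 15.1% of windows. The GC box GGGCGG lay in the windows of all 9 members and in 35.7% of windows, and the ETS-type letters CCGGAAG in those of 5 members and in 8.86%. Both strands were searched, several members have more than 1 window, and Hspd1 and Hspe1 share part of theirs. A match is a description of the letters and not of binding.

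All 10 chaperonin genes rose with MYCN on: the 8 CCT genes by 1.88-fold (Cct7) to 2.59-fold (Cct3), Hspd1 by 3.83-fold and Hspe1 by 3.26-fold. Over all genes tested, 15.3% were called higher with MYCN on and 15.6% lower. Each of the 10 was higher with MYCN on in each of the 5 lines. The 10 genes were measured in the same 5 pairs of libraries, so they do not add replicates. The share of all genes tested that were higher in all 5 lines was not counted. The on libraries lay wholly above the off libraries for 7 of the 8 CCT genes and for both mitochondrial genes, a separation seen in 6.35% of all genes tested. The median log2 change of the CCT genes was 1.06, against -0.08 over all genes tested. A called rise of at least 2-fold was found for 6 of the 8 CCT genes and in 5.93% of all genes tested. Without G9577 this count was 2 of 8 (Cct2 and Cct3), with 5.60% of all genes, and without G4314 it was 3 of 8 (Cct2, Cct3 and Cct5), with 3.835%.

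**Figure D1:**
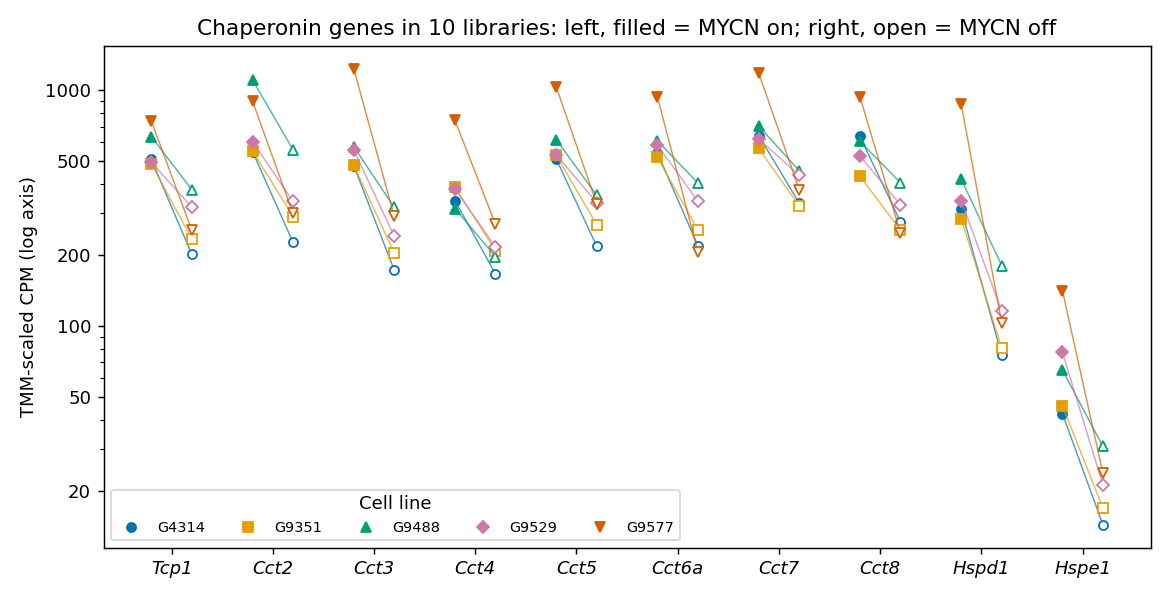
Level of each chaperonin gene in each library, in TMM-scaled CPM on a log axis; for each gene the filled symbols on the left are MYCN on, the open symbols on the right MYCN off, and a line joins the 2 libraries of a cell line. Every line slopes down to the right, G9577 (inverted triangles) holds the highest on library of 9 genes, and Cct2 in G9488 with MYCN off, at 558 CPM, is the one off library that reaches the on libraries of its gene.

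Hspd1 encodes HSP60, the subunit of the mitochondrial barrel (mm9 chromosome 1, 55134678 to 55144776, minus strand). It had 312, 285, 419, 339.8 and 874 CPM with MYCN on in G4314, G9351, G9488, G9529 and G9577, against 75.2, 80.9, 180.2, 116 and 103 CPM with MYCN off. G9488 held the highest off level and G9577 the highest on level, and the lowest on library was still above the highest off library. The means were 446 ± 245 CPM with MYCN on and 111 ± 42.0 with MYCN off (n = 5 lines, SD). The log2 change was 1.94 (SE 0.26, adjusted p = 0.00431 in edgeR's test), and 1.67 without G9577 (adjusted p = 0.00125). A larger called rise was found in 90 of the 12835 genes tested.

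Hspe1 encodes HSP10, the lid that closes the HSP60 barrel (mm9 chromosome 1, 55144992 to 55148161, plus strand). Its levels were 42.4, 45.8, 65.0, 77.2 and 141 CPM with MYCN on, against 14.3, 16.9, 30.8, 21.1 and 23.7 CPM with MYCN off, with the lines in the same order. The highest off library was again that of G9488, and no off library reached an on library. The log2 change was 1.70 (SE 0.23, adjusted p = 0.00422 in edgeR's test), and 1.497 without G9577. Hspe1 had the fewest counts of the 10 genes, 158 to 1515 per library. Near-identical copies of both genes are known in the mouse genome, and reads that map to several places were not counted, so the levels of Hspd1 and Hspe1 may be too low and their ratio to each other is uncertain.

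Because the 2 genes sit head to head, their ratio was compared between the groups. Per kilobase of exon, Hspe1 stood at 0.413, 0.489, 0.471, 0.690 and 0.490 of Hspd1 with MYCN on in G4314, G9351, G9488, G9529 and G9577, against 0.578, 0.633, 0.519, 0.555 and 0.699 with MYCN off. The ratio was lower with MYCN on in 4 lines and higher in G9529. The mean log2 difference was -0.24 ± 0.34 (SD, n = 5 lines), with p = 0.188 in a two-sided exact sign-flip permutation test, for which 5 pairs allow no p below 0.0625. A change of the ratio was therefore not shown, and this design could not have brought the test under 0.05.

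Turning to the cytosolic chaperonin, Tcp1 encodes its alpha subunit, the one CCT was first named after (mm9 chromosome 17, 13109195 to 13117933, plus strand). It had 508, 487, 635, 494 and 740.2 CPM with MYCN on in the same order of lines, against 201, 234, 378, 319 and 255 CPM with MYCN off. The groups did not overlap, and the smallest gap between the 2 conditions was in G9529. Its log2 change was 1.06 (SE 0.16, adjusted p = 0.00574 in edgeR's test). A stretch of 571 exon bases is shared with Acat3, and reads there were not counted for either gene.

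Cct2, the beta subunit (mm9 chromosome 10, 116488054 to 116500870, minus strand), had 549, 553, 1105, 604 and 897 CPM with MYCN on, against 226, 290.4, 558, 337 and 299.8 CPM with MYCN off. This was the one member whose groups overlapped: G9488 with MYCN off, at 558 CPM, was above G4314 and G9351 with MYCN on. Within every line the on library was still the higher one, by 0.84 (G9529) to 1.58 (G9577) on the log2 scale. The log2 change was 1.12 (SE 0.14, adjusted p = 0.00400 in edgeR's test).

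Cct3, the gamma subunit (mm9 chromosome 3, 88101057 to 88125688, plus strand), had 478, 481, 576, 557 and 1232 CPM with MYCN on, against 172, 203, 318, 239.7 and 291 CPM with MYCN off. Per kilobase of exon, its on library in G9577 was the highest of any CCT gene and library, at 629.6 CPM per kb. Its log2 change of 1.37 (SE 0.18, adjusted p = 0.00422 in edgeR's test) was the largest of the 8, and it stayed so without G9577, at 1.21. Cct4, the delta subunit (mm9 chromosome 11, 22890593 to 22903336, plus strand), had 339.8, 388, 315, 381 and 743 CPM with MYCN on, against 166, 209, 196, 216 and 269 CPM with MYCN off. Its on libraries other than G9577 lay close together, and all were above the highest off library. The log2 change was 0.98 (SE 0.14, adjusted p = 0.00485 in edgeR's test).

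Cct5 is the epsilon subunit (mm9 chromosome 15, 31520639 to 31531559, minus strand), with 511, 529, 617, 532 and 1032 CPM with MYCN on, against 217, 268, 358, 333 and 329 CPM with MYCN off. The groups were well apart, and its log2 change of 1.06 (SE 0.16, adjusted p = 0.00589 in edgeR's test) was close to that of Tcp1. Cct6a, the zeta subunit (mm9 chromosome 5, 130293232 to 130322319, plus strand), had 541, 518, 609, 585 and 935 CPM with MYCN on, against 218, 255, 403, 337 and 206 CPM with MYCN off. Its change differed most between lines among the CCT genes: G9577 had both its highest on library and its lowest off library, a change of 2.18, against 0.60 in G9488. The fitted change was 1.18 (SE 0.23, adjusted p = 0.0116 in edgeR's test), and 0.94 without G9577.

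Cct7, the eta subunit (mm9 chromosome 6, 85401499 to 85418471, plus strand), had 642, 566, 704, 621 and 1184 CPM with MYCN on, against 332, 323, 455, 435 and 378 CPM with MYCN off. It rose least of the 8, with a log2 change of 0.91 (SE 0.18, adjusted p = 0.0118 in edgeR's test), and 0.74 without G9577. Cct8, the theta subunit (mm9 chromosome 16, 87483570 to 87496114, minus strand), had 636, 431, 606, 526 and 938 CPM with MYCN on, against 277, 255, 405, 326 and 248 CPM with MYCN off. Its log2 change was 1.03 (SE 0.21, adjusted p = 0.0131 in edgeR's test). G9351 held its lowest on library, still above every off library. Exons of Cct7 share 214 bases with Pradc1, and those of Cct8 share 189 bases with Usp16.

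The calls rested on all 5 lines to different degrees. Without G9577 all 10 genes were still called, and all 10 changes were smaller. Beside the values given above, the log2 change was then 0.95 for Tcp1, 1.02 for Cct2, 0.87 for Cct4, 0.93 for Cct5 and 0.82 for Cct8, and the CCT median was 0.93. Without G4314, Cct6a, Cct7 and Cct8 missed the threshold, with adjusted p values of 0.0516, 0.0516 and 0.0586 in edgeR's test and log2 changes of 1.13, 0.88 and 0.96, which left 5 of the 8 CCT genes called. Rises over all genes then numbered 852 of 12829 tested, against 1969 of 12835 in the main fit. In a fit without the line block 4 of the 8 CCT genes were called, beside 215 rises over all 12835 genes. Hspd1 and Hspe1 were called in every alternative fit.

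**Figure D2:**
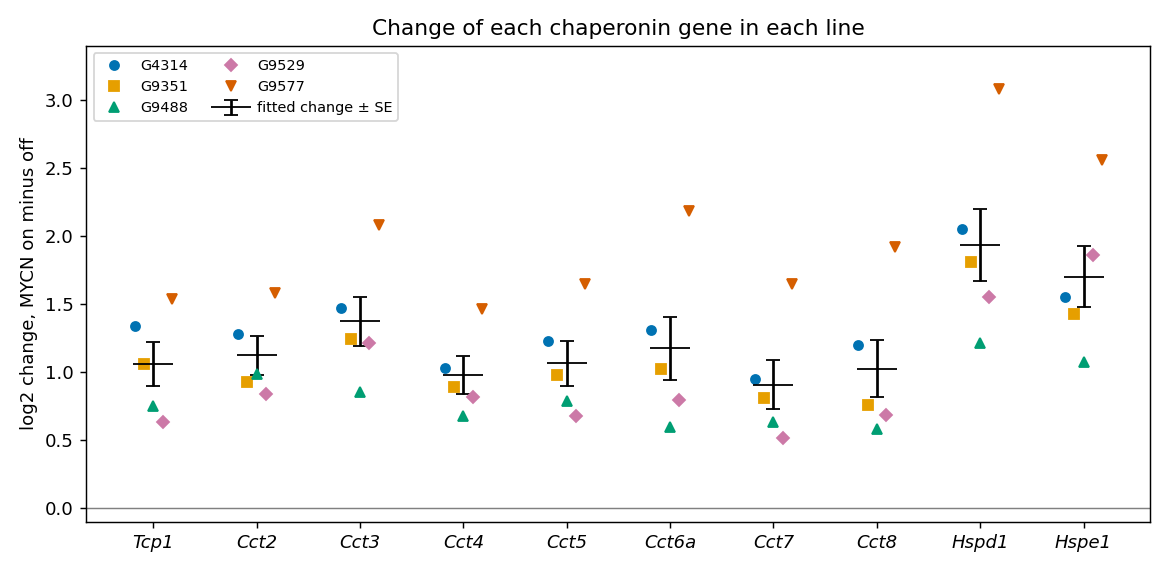
Log2 change of each chaperonin gene, MYCN on minus off; symbols are single lines and the black bars are the fitted change ± SE from the fit over all genes. All symbols lie above 0, G9577 is the highest symbol for each gene, and Hspd1 and Hspe1 lie above the CCT genes, at fitted changes of 1.94 and 1.70 against 0.91 to 1.37.

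The size of the change differed between the lines. With 1 library per condition in each line, a difference between lines cannot be told apart from one between libraries, and it was not tested. The log2 changes of the 8 CCT genes ran from 0.95 to 1.47 in G4314, from 0.76 to 1.24 in G9351, from 0.58 to 0.99 in G9488, from 0.51 to 1.22 in G9529 and from 1.46 to 2.18 in G9577. The line medians were 1.25, 0.95, 0.71, 0.74 and 1.65 in that order. G9488 and G9529 thus had the smallest changes and G9577 the largest. In each of the 5 lines both Hspd1 and Hspe1 changed more than all 8 CCT genes. This order of lines was not that of Mycn, whose log2 change was 1.61 in G4314, 4.16 in G9351, 2.23 in G9488, 2.85 in G9529 and 3.50 in G9577.

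A list of 15 mitotic genes, which mark dividing cells, differed between the lines in the same direction as the CCT genes. Its median log2 change was 2.66 (G4314), 2.05 (G9351), 0.42 (G9488), -0.10 (G9529) and 3.21 (G9577). Over all lines 7 of the 15 were called higher and none lower, beside 15.3% called higher and 15.6% lower over all genes. Among the 7 were Bub1b at 2.03 (SE 0.49), Bub1 at 2.05 (SE 0.57) and Aurkb at 1.92 (SE 0.55), all 3 being kinases or kinase-like proteins of mitosis. The count was 0 when G4314 or G9351 was left out, 3 when G9577 was, 5 when G9488 was and 15 when G9529 was, and it was 4 with RLE scaling and 15 with DESeq2. In G9529, with 1 library per condition, the mitotic median was -0.10 and the changes of the 10 chaperonin genes were 0.51 to 1.86. The part of cell division in the chaperonin changes was not tested in any line.

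Summed over the 8 genes, the CCT level was 4204, 3951, 5168, 4299 and 7701 CPM with MYCN on in G4314, G9351, G9488, G9529 and G9577, against 1809, 2037, 3071, 2543 and 2275 CPM with MYCN off. The sum was 2.32, 1.94, 1.68, 1.69 and 3.38 times as high with MYCN on in those lines, and every on library was above every off library. The mean was 5065 ± 1543 CPM with MYCN on and 2347 ± 488 with MYCN off (n = 5 lines, SD). Without G9577 it was 4406 ± 529 CPM with MYCN on and 2365 ± 562 with MYCN off (n = 4 lines, SD).

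Levels of different genes can be set side by side only per length. Per kilobase of exon, the order by mean with MYCN on was Cct2, Cct5, Cct3, Cct7, Cct6a, Cct8, Tcp1, Cct4, Hspd1 and Hspe1. With MYCN off Cct3 moved back to the sixth place and the rest kept their order. Cct2 stood at 378 ± 127 CPM per kb with MYCN on and 174 ± 64.8 with MYCN off, and Cct4 at 220.4 ± 89.5 with MYCN on and 107 ± 19.2 with MYCN off (SD, n = 5 lines). Neighbours in this order among the CCT genes lay within the spread between lines. The length used was the full exon length, including bases shared with other genes, where reads were not counted. These were 571 of 2499 bases in Tcp1, 214 of 2452 in Cct7 and 189 of 2391 in Cct8. The levels per kb of these genes, Tcp1 above all, may therefore be too low and their places in the order uncertain. Hspd1 was below the CCT mean in every library, at 0.523 to 0.822 of it with MYCN on and 0.289 to 0.429 with MYCN off, so the 2 ranges did not overlap. Reads that map to several places were not counted, so the levels of Hspd1 and Hspe1 may be too low. Their places below the CCT genes are uncertain for that reason.

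The subunits are needed in equal number in the complex, and the share of each transcript in the summed CCT level per kb ran from 6.55% to 23.1% over all genes and libraries. The share of Cct3 was higher with MYCN on in all 5 lines, at 13.8% ± 2.08 with MYCN on and 11.3% ± 1.43 with MYCN off (SD, n = 5 lines). The share of Cct7 was lower with MYCN on in all 5 lines, at 12.6% ± 0.65 with MYCN on and 14.4% ± 1.20 with MYCN off. Without G9577 the share of Cct3 was 12.9% ± 0.88 with MYCN on and 10.7% ± 0.44 with MYCN off, and that of Cct7 12.5% ± 0.64 with MYCN on and 14.4% ± 1.38 with MYCN off (SD, n = 4 lines). No other subunit moved one way in all 5 lines. These shares were not tested, and they depend on each other because they sum to 100% in a library. Those of Tcp1, Cct7 and Cct8 may be too low, because their exon length includes shared bases where reads were not counted.

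**Figure D3:**
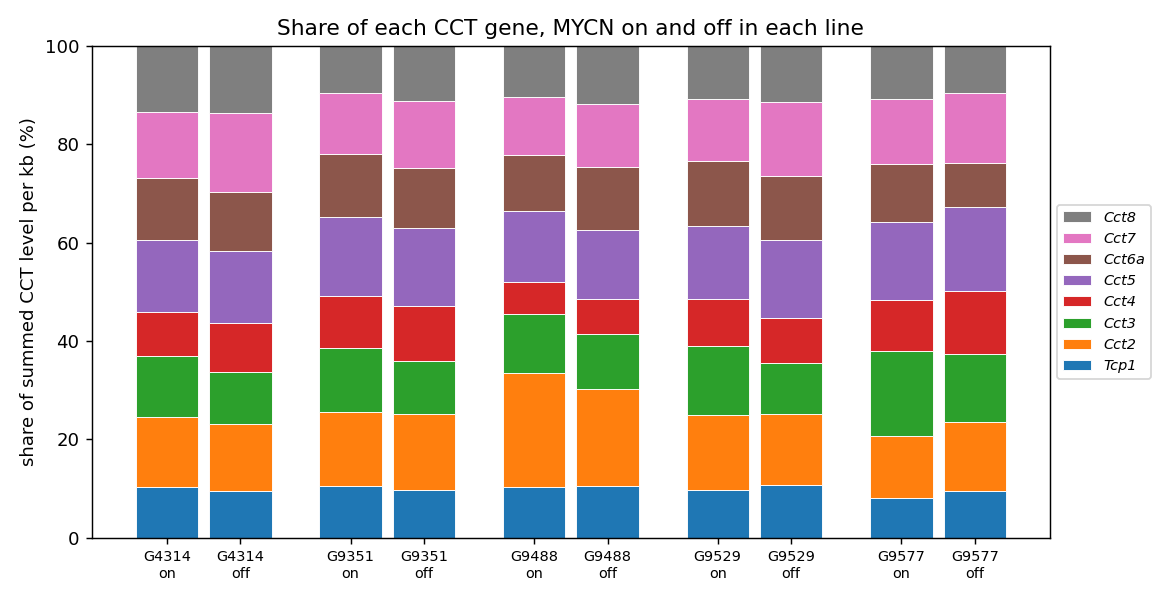
Share of each CCT gene in the summed CCT level per kb of exon, in percent, for the on library (left) and the off library (right) of each line; shares in a bar sum to 100%. The wide orange band is Cct2 in G9488, 23.1% with MYCN on and 19.8% with MYCN off, against 12.5% to 15.4% in the other libraries.

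A few shares belonged to a line and not to a condition. Cct2 made up 23.1% of the summed level in G9488 with MYCN on and 19.8% with MYCN off, but 12.5% to 15.4% in the other 8 libraries. Other genes of its chromosome were also higher in that line. Taking each line's log2 level minus the median of the other 4 lines, the median gene of chromosome 10 lay 0.59 higher in G9488 with MYCN on and 0.60 higher with MYCN off, the highest of 20 chromosomes in both. In G9577 the median gene of chromosome 3, which carries Cct3, lay 0.55 higher with MYCN on and 0.55 higher with MYCN off. In G4314 that of chromosome 16, which carries Cct8, lay 0.43 higher with MYCN on and 0.32 higher with MYCN off.

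These differences of share were set against those of the chromosome over the 8 genes and 5 lines, after the values had been seen. With MYCN on, all 7 points with a chromosome difference of at least 0.3 in size had a share that differed in the same direction, and with MYCN off 6 of 7 did. Only the direction was counted, and the sizes could differ. Cct7 in G9577 had share differences of 0.09 with MYCN on and -0.004 with MYCN off, beside chromosome differences of 0.41 and 0.49. Over the 40 points of a condition Pearson's r was 0.715 with MYCN on and 0.559 with MYCN off, and Spearman's rho was 0.486 with MYCN on and 0.447 with MYCN off. Over the 32 points left without G9577, r was 0.706 with MYCN on and 0.613 with MYCN off, and rho was 0.266 with MYCN on and 0.481 with MYCN off. The points are not independent, since 5 of the 7 with large differences in each condition come from Cct2 in G9488 and from Cct3, Cct4, Cct5 and Cct7 in G9577, and shares within a library sum to a fixed total. Cct4 in G9488 had a share that was 0.60 lower on the log2 scale in both conditions, beside a small chromosome difference of -0.11 with MYCN on and -0.12 with MYCN off. Cct6a in G9577 with MYCN off had a share difference of -0.52 beside a chromosome difference of 0.04. DNA copy number was not measured in these data, and its part was not tested.

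**Figure D4:**
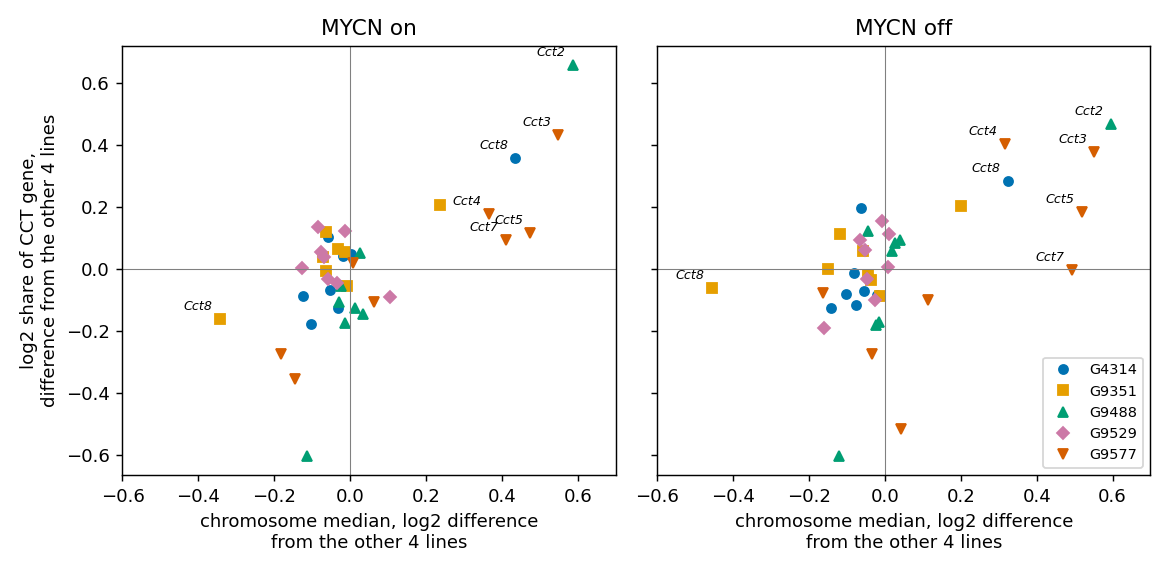
Each point is 1 CCT gene in 1 line, with MYCN on (left) and MYCN off (right): the x axis is the median log2 difference of the genes on its chromosome from the other 4 lines, and the y axis the log2 difference of the gene's share from the other 4 lines. Named points have a chromosome difference of at least 0.3 in size, and Cct2 in G9488 lies at the upper right in both panels, at 0.59 and 0.66 with MYCN on and 0.60 and 0.47 with MYCN off.

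The companion lists described below had smaller median changes than the 1.06 of CCT, a difference that was not tested. The mitotic list had a larger median, 1.64, and 1.197 without G9577. Without G9577 the CCT median was 0.93, against 0.46 for prefoldin, 0.15 for client genes, 0.04 for tubulin folding cofactors, 0.57 for the mitochondrial HSP70 system, 0.48 for mitochondrial proteases and prohibitins and 0.37 for cytosolic heat shock genes. Prefoldin, the cochaperone that passes actin and tubulin chains to CCT, has 6 subunit genes, of which 4 were called higher and none lower. Over all genes tested 15.3% were called higher and 15.6% lower. The median log2 change of prefoldin was 0.44. Pfdn4 had 83.1, 70.8, 60.2, 74.7 and 73.3 CPM with MYCN on in the order of lines used above, against 27.7, 33.4, 38.5, 43.9 and 19.5 CPM with MYCN off, a log2 change of 1.19 (SE 0.22, adjusted p = 0.00893 in edgeR's test). It was thus in the range of the CCT genes, without the high on level in G9577. Pfdn2 rose by 0.61 (SE 0.11) and Pfdn6 by 0.48 (SE 0.14). The count of prefoldin calls was 2 without G4314, 2 without G9351 and 2 without G9488.

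None of the 3 tested phosducin-like genes, whose products assist CCT on some substrates, was called (median 0.17), at an adjusted p of 0.253 or above in edgeR's test. None of 4 chaperonin-like paralogs outside the general complex, Cct6b, Mkks, Bbs10 and Bbs12, was called either. The lowest adjusted p among them, 0.123 in edgeR's test, was that of Cct6b, the paralog of Cct6a described in testis, which was at 2.77 ± 0.84 CPM with MYCN on and 1.68 ± 0.52 with MYCN off (n = 5 lines, SD). Over all genes tested 15.3% were called higher and 15.6% lower. With 3 and 4 genes tested, a lack of calls does not set these lists apart from all genes. Among 6 tubulin folding cofactors, which take over tubulin after CCT, 1 was called higher. That is 16.7% of the list, near the 15.3% called higher over all genes tested. It was Tbcd, with a log2 change of 0.63 (SE 0.18, adjusted p = 0.0364 in edgeR's test), and it was called in none of the fits that left out G4314, G9351, G9488 or G9529.

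Of 22 genes for known CCT substrates 2 were called higher (9.09%) and 3 lower, with a median of 0.25. Over all genes tested 15.3% were called higher and 15.6% lower, so calls were no more frequent in this list. Strap, a WD40 repeat protein, had 386, 330.2, 413, 399 and 748 CPM with MYCN on, against 166, 165, 259, 232 and 224 CPM with MYCN off, a log2 change of 1.08 (SE 0.17, adjusted p = 0.00640 in edgeR's test). That is within the range of the CCT genes. Tuba1b, an alpha tubulin, rose by 0.91 (SE 0.23), but by only 0.24 in G9488 and 0.24 in G9529. Stat3, a signalling transcription factor, was lower with MYCN on, with a log2 change of -1.07 (SE 0.23), as were Tubb2a, a beta tubulin, at -0.84 (SE 0.18), and Gnb2, a G protein beta subunit with WD40 repeats, at -0.47 (SE 0.10). Actb, cytoplasmic actin, was at 2092 ± 1176 CPM with MYCN on and 1834 ± 1026 with MYCN off (n = 5 lines, SD), a change that did not pass the test (adjusted p = 0.306). The counts rested on single lines: 1 higher and 0 lower without G4314, 1 higher and 1 lower without G9351, and 4 higher without G9529.

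Beside Hspd1 and Hspe1 stands the mitochondrial HSP70 system, which pulls proteins into the matrix and folds them. Of its 8 genes 4 were called higher and none lower, with a median of 0.56, beside 15.3% called higher and 15.6% lower over all genes. Hspa9, mitochondrial HSP70 itself, had 639.7, 712, 829.4, 778 and 1458 CPM with MYCN on, against 242, 217, 369, 260.1 and 326 CPM with MYCN off. Its log2 change of 1.605 (SE 0.16, adjusted p = 0.00300 in edgeR's test) was close to that of Hspe1, and the groups did not overlap. Trap1, the mitochondrial HSP90, rose by 0.98 (SE 0.11) and Grpel1, the nucleotide exchange factor of mitochondrial HSP70, by 0.58 (SE 0.11). The count was 2 without G9351.

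Among 13 genes for mitochondrial proteases and prohibitins 6 were called higher and none lower, with a median of 0.46. Over all genes tested 15.3% were called higher and 15.6% lower. With G9577 left out, with DESeq2 and with a filter at a mean of 5 CPM, 1 gene of the list was called lower. In all of these it was Clpx, the unfoldase partner of Clpp, with a log2 change of -0.37 (adjusted p = 0.0629 in edgeR's test) over all 5 lines. Phb2, a prohibitin that forms a scaffold in the inner membrane, rose by 1.14 (SE 0.12, adjusted p = 0.00300 in edgeR's test). Afg3l2, a protease of the inner membrane, rose by 0.70 (SE 0.12), and Clpp, the peptidase of the matrix, by 0.74 (SE 0.13).

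Of 21 tested cytosolic heat shock genes 10 were called higher and 2 lower, beside 15.3% called higher and 15.6% lower over all genes, with a median of 0.47. Fkbp4, a cochaperone of HSP90, rose by 1.25 (SE 0.22, adjusted p = 0.00818 in edgeR's test) and Hsp90ab1, the constitutive HSP90, by 0.83 (SE 0.15). Cryab and Hspb8, small heat shock proteins, were lower with MYCN on, at -1.53 (SE 0.23) and -1.16 (SE 0.26). The inducible genes Hspa1a and Hspa1b did not pass the filter and were below 1 CPM in all libraries of the 4 lines other than G9577. In G9577 Hspa1a was at 5.40 CPM with MYCN on and 32.7 with MYCN off. Hspa1b was there at 19.8 CPM with MYCN on and 104.2 with MYCN off. With RLE scaling 6 were called higher, and with a line left out 2 (G4314), 3 (G9351), 5 (G9488), 5 (G9529) or 10 (G9577). Of the lower calls, Cryab was left alone without G4314 or G9351, neither was called without the line block, and without G9577 Hspa4l, a relative of the HSP70 proteins, was called lower beside both.

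**Figure D5:**
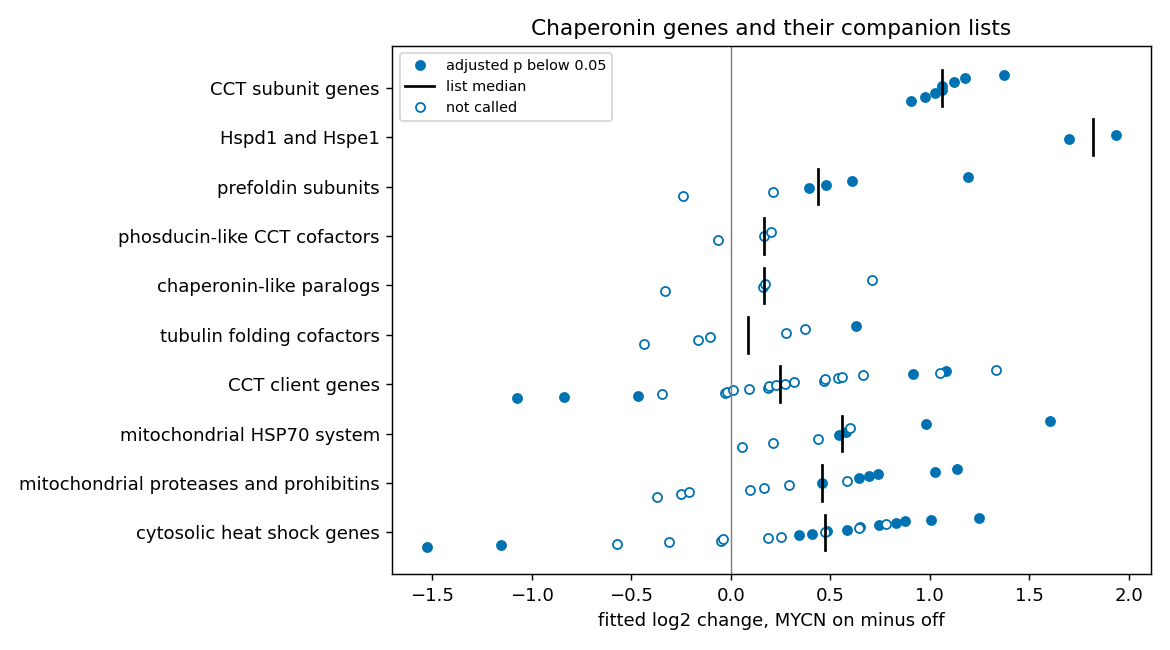
Fitted log2 change (MYCN on minus off) of each tested gene of the chaperonin lists and their companion lists; filled circles have an adjusted p below 0.05, open circles do not, and the black bar is the median of the list. The 8 CCT genes sit between 0.91 and 1.37 and Hspd1 and Hspe1 at 1.94 and 1.70, while the medians of the companion lists shown lie between 0.09 and 0.56. The mitotic list, with a median of 1.64, is not shown.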

How the data were processed

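RNA was extracted with TRIzol and poly(A) RNA was made into NEBNext Ultra libraries, per the labels' protocols. Per the submitters' processing notes, bcl2fastq 1.8.4, STAR 2.5.2a and the build mm9 were used. The deposited values are raw read counts per gene from featureCounts 1.6.0, unstranded, per the file headers; the command in the headers leaves multi-mapping and multi-overlapping reads at the default, by which they are not counted. Without strand, reads of overlapping antisense genes cannot be told apart.

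From these counts, genes were filtered (filterByExpr, minimum count 10), scaled (TMM) and tested with edgeR 4.0.16 in R 4.3.3 by the quasi-likelihood F test with the line as a block, two-sided, with Benjamini-Hochberg adjustment over 12835 genes (4 residual degrees of freedom, biological coefficient of variation 28.5%). Per-line changes compare log2 CPM (prior count 2) of the 2 libraries of a line. Libraries are paired by line in the labels; same-line deviations from the group means correlated with r of 0.721 to 0.873 and other lines with at most 0.273. The procedure was tested on simulated counts.

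Alternatives were no block, DESeq2 1.42.0, limma-voom (limma 3.58.1), RLE scaling, library size alone, other filters, and leaving out each line. The members and companion lists were chosen with earlier results of these data known. Named were the members, Mycn, from each companion list up to 3 called genes with the smallest p, and called genes against a list's majority; Gnb2, Actb, Cct6b, Clpx, Hspa1a, Hspa1b and Hspa4l were named after their values were seen. Tubb2c was matched as Tubb4b through RefSeq synonyms. Sequences are RefSeq's for GRCm38.p6 and none was read by mm9 coordinates.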

Additional observations from a re-analysis of the deposited data

Results flagged for a closer look

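In 6 of 31 groups of 5 libraries that were looked at, 1 library lay far from the other 4 by Dixon's criterion, and in all 6 it was G9577 with MYCN on. These were Cct3 at 1232 CPM, Cct4 at 743.5 CPM, Cct5 at 1032 CPM, Cct6a at 934.8 CPM, Cct7 at 1184 CPM and Hspd1 at 874.4 CPM. Chance flags about 1 in 20 groups, and the genes are measured in the same library, so the 6 are not independent. G9577 is also the line that lacks most neuroendocrine markers and holds mesenchymal ones, and the part of this in its chaperonin levels was not tested. Without G9577 the on means were 523 ± 50.5 CPM for Cct3, 356 ± 34.6 CPM for Cct4, 547 ± 47.6 CPM for Cct5, 563 ± 41.4 CPM for Cct6a, 633 ± 57.4 CPM for Cct7 and 339 ± 58.0 CPM for Hspd1 (SD, n = 4 lines).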

How the results depend on the processing

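The 10 members gave 120 results under the alternatives, of which 113 kept their direction and their call, 7 kept the direction but lost the call and none reversed. The 7 were Cct2, Cct4, Cct7 and Cct8 without the replicate block (4 of 8 CCT genes called) and Cct6a, Cct7 and Cct8 without G4314. Leaving out each line in turn gave 5 to 8 CCT genes called higher, and 2 of 2 for Hspd1 and Hspe1. Over all genes, rises numbered 1969 and falls 2004 in the main fit. Without the block pairing the libraries by line they numbered 215 and 59, and with 1 line left out they ran from 813 to 2244 and from 916 to 2249. With DESeq2 the falls numbered 2997 against 2283 rises. The log2 ratio of Hspe1 to Hspd1 ran from -0.38 to -0.17 with 1 line left out and had p = 0.127 in the exact permutation test without pairing. The median log2 change of all genes was -0.12 with RLE scaling and -0.09 with library size alone. With 4 lines left, the exact test of the ratio could not fall below 0.05.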

Other observations

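Outside the chaperonins, the genes whose log2 CPM followed the mean of the 8 CCT genes most closely over the 10 libraries were Nhp2 (Pearson's r = 0.995), Ncl (0.995), Mphosph10 (0.992), Dkc1 (0.991) and Nifk (0.989), among 10045 genes with a median r of -0.02. Nhp2 and Dkc1 are proteins of the small nucleolar particles that modify ribosomal RNA, and Ncl encodes nucleolin. For the mean of Hspd1 and Hspe1 they were Wdr12 (0.991), Ncl (0.990), Mphosph10 (0.990), Fkbp1a (0.990) and Nifk (0.988). These values are descriptions: the on and off libraries are apart for the chaperonins, so r holds the difference between the conditions, and libraries of a line share that line. Fitted log2 changes were 2.09 for Nhp2, 1.67 for Ncl, 1.26 for Mphosph10, 1.96 for Dkc1, 1.22 for Nifk, 1.79 for Wdr12 and 0.80 for Fkbp1a.

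Around Cct2, 9 other genes with a mean of at least 10 CPM lie within 1 Mb on either side in mm9. All 9 were higher in G9488 than the median of the other 4 lines with MYCN on and with MYCN off, with a median log2 difference of 0.38 with MYCN on and 0.61 with MYCN off. Cct2 itself was 0.94 higher with MYCN on and 0.92 higher with MYCN off. This region was looked at after the values of Cct2 had been seen.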
